A study of Mus musculus with 4 samples.

Results

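The respiratory chain was followed at the RNA level in ID8 cells, a mouse ovarian cancer cell line, by complex and by the genome that encodes each subunit. A row of the gene table was taken as a member where its symbol begins with mt-Nd, mt-Co, mt-Cytb or mt-Atp, with Nduf followed by a, b, c, s or v and a digit, with Uqcr, with Cox and a digit from 4 to 8, or with Atp5, or where it is 1 of the 4 Sdh genes. This matched 101 of 22063 rows, 13 from the mitochondrial genome and 88 from the nucleus. All 13 mitochondrial and 77 of the 88 nuclear members passed the filter on low counts, which left 90 members among the 11448 genes tested.

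Cells with a control shRNA (shCtrl, labelled WT) were compared with cells with an shRNA against USP9X (shUSP9X, labelled a USP9X knockdown), with 2 libraries in each group. The study's shRNAs were built in a lentiviral vector with a puromycin marker. Which shRNA these cells carried, whether TGF-β1 was added and at which oxygen level they grew is not given in the sources used here, nor is it stated that the libraries of a group came from separate cultures, so that p-values measure the spread between these libraries only. RNA with poly(A) tails was enriched on oligo(dT) beads before sequencing, and the total count of a library was 17232006 and 15611363 for shCtrl and 19978889 and 17021261 for shUSP9X. CPM values below, counts relative to the library total, are scaled by the TMM factors of edgeR unless stated otherwise, and adjusted p-values are from the quasi-likelihood test of edgeR with Benjamini-Hochberg adjustment over all 11448 genes. A gene is said to have risen or fallen where its adjusted p was under 0.05.

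Usp9x itself (chrX:13071498-13173328, GRCm38, plus strand) stood at 298 and 282 CPM in the shCtrl libraries and at 19.7 and 20.5 CPM in the shUSP9X libraries, a log2 fold change of -3.85 ± 0.06 (SE, n = 2 against 2, adjusted p 4.66e-26). Markers of ovarian surface epithelium were abundant in all libraries, with a summed level of 2658 and 2687 CPM in shCtrl and of 3089 and 3033 CPM in shUSP9X over the 11 genes of the list, 9 of which passed the filter. The keratin gene Krt19 was the most abundant of them in shUSP9X. Of the 9, 3 fell and 4 rose, where 33.6% of all tested genes fell and 33.8% rose. With the offset for GC content and transcript length described below, 4 were lower, Krt19 among them, and 3 higher. Of all genes, 27.1% were then lower and 36.7% higher. Of 8 leukocyte markers, 3 were detected in the shUSP9X libraries alone. Itgam, an integrin of myeloid cells and the most abundant of them, had counts of 0 and 0 in shCtrl and of 72 and 75 in shUSP9X, Adgre1, a macrophage receptor, had 0 and 0 against 58 and 59, and Ptprc, the common leukocyte antigen, had 0 and 0 against 29 and 18. The summed level of the list was 0.0577 and 0 CPM in shCtrl and 8.04 and 9.2 CPM in shUSP9X, and Cd3e and C1qa were among those listed at 0 in every library. Of the fibroblast markers, Pdgfra fell from 15.7 and 13.6 CPM to 1.72 and 2.31 CPM, Dcn fell from 168 and 167 CPM to 123 and 121 CPM, and Lum was listed at 0. The summed markers of endothelium were at most 1.20 CPM, of striated muscle at most 0.569 CPM and of erythroid cells at most 0.475 CPM in any library. The part of these markers in the results below was not tested.

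The chain carries electrons from NADH and succinate to oxygen and uses the released energy to pump protons across the inner mitochondrial membrane, and ATP synthase, here counted as complex V, lets them flow back to make ATP. Complex I oxidises NADH, complex II oxidises succinate, complex III passes electrons from coenzyme Q to cytochrome c, and complex IV hands them to oxygen. Complex II is encoded wholly in the nucleus, whereas the other complexes join subunits from both genomes. The mitochondrial subunits sit in the membrane core and are made from long transcripts of both strands of the circular mitochondrial DNA that are cut at the flanking tRNAs, while the nuclear subunits are made in the cytosol and imported.

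All 13 mitochondrially encoded subunits fell in shUSP9X and none rose, with a median log2 fold change of -1.22 and a range from -1.62 for mt-Nd4 to -0.57 for mt-Nd3. Their counts made up 4.52 and 4.34% of the shCtrl libraries and 2.15 and 2.15% of the shUSP9X libraries. In bulk RNA, less of it per cell and fewer cells that hold it cannot be told apart. As RNA was captured by its poly(A) tail, a change in level and a change in tails cannot be told apart either. Of all genes tested, 33.6% fell and 33.8% rose, and their median log2 fold change was -0.001. The groups did not overlap in 9419 of the 11448 tested genes and in 64 of the 77 tested nuclear members. Groups that lie apart, here and below, are therefore the common case in these libraries. The study's methods give a cutoff on p and fold change without saying whether p was adjusted. Read as an unadjusted p under 0.05 with a fold change above 1.5, and applied here to the edgeR fit in place of the DESeq2 of the study, 12 of the 13 were lower and none was higher, where 18.7% of all genes were lower and 10.8% higher. The falls were smaller, and 4 of them changed sign, once a trend shared by all genes was removed. With an offset that takes out each library's trend of counts with GC content and transcript length, 8 of the 13 were lower and 3 were higher, with a median log2 fold change of -0.156, beside 27.1% lower and 36.7% higher of 11430 genes that have both properties. The offset fitted to the longest transcript of each gene, a choice made after the data had been seen, gave 10 lower and 1 higher and a median of -0.414. The mitochondrial subunits lie at the edge of the fitted trend. mt-Atp8, at 31.9% GC and 204 bases, stands at the lower limit of both among the tested genes. Only 153 tested nuclear genes share the GC and length range of the 13, so their values with the offset rest on few other genes.

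**Figure D1:**
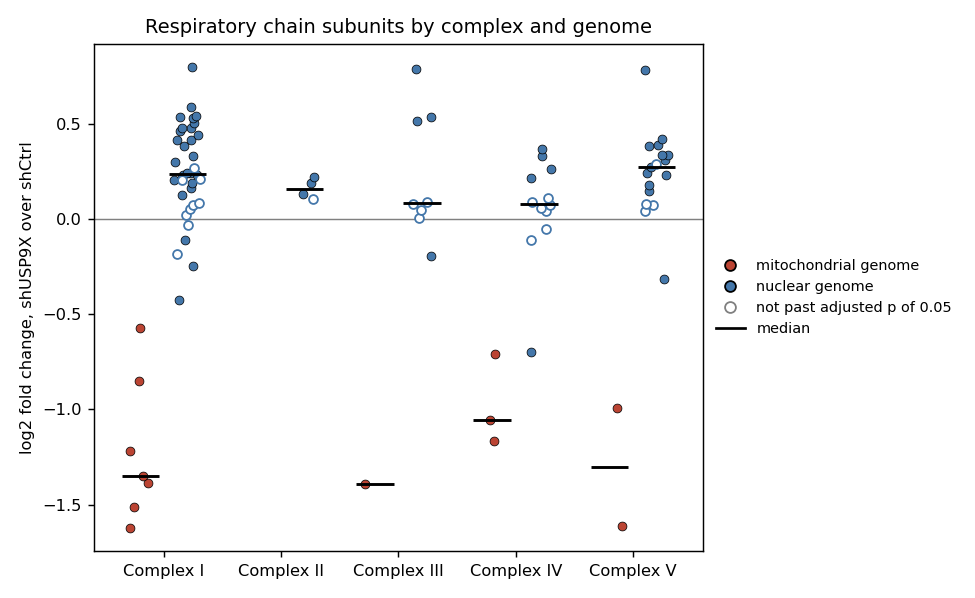
log2 fold change of shUSP9X over shCtrl (vertical axis) for the 90 tested subunits, by complex (horizontal axis) and genome, each point a gene and each bar a median; open points did not pass an adjusted p of 0.05. The mitochondrial subunits lie between -1.62 and -0.57 in every complex that has them, and the nuclear subunits lie between -0.70 and 0.80.

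mt-Co1, which encodes the catalytic subunit of complex IV, had the highest level per transcript length of all genes in the table, a mean of 8698 FPKM over the 4 libraries. It stood at 16816 and 16492 CPM in shCtrl and at 9875 and 10465 CPM in shUSP9X (log2 fold change -0.71 ± 0.03, SE, adjusted p 1.06e-18). The libraries of each group lay close together and the groups did not overlap. mt-Co2, which takes electrons from cytochrome c, went from 5537 and 4820 CPM to 2345 and 2268 CPM (-1.17 ± 0.04), and mt-Co3, the remaining mitochondrial subunit of complex IV, from 3804 and 3580 CPM to 1759 and 1789 CPM (-1.06 ± 0.03). The single mitochondrial subunit of complex III, cytochrome b (mt-Cytb), went from 3313 and 3142 CPM to 1255 and 1203 CPM (-1.39 ± 0.03, adjusted p 6.73e-23). With the offset, mt-Co2, mt-Co3 and mt-Cytb stayed lower, at -0.44, -0.37 and -0.67, and mt-Co1 was no longer past the threshold at -0.04.

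Among the 7 mitochondrial subunits of complex I, which form its proton-pumping arm, mt-Nd4 fell most, from 2623 and 2588 CPM in shCtrl to 859 and 833 CPM in shUSP9X (-1.62 ± 0.03, adjusted p 1.06e-24). mt-Nd2 went from 2005 and 1876 CPM to 690 and 669 CPM (-1.51 ± 0.03). The smallest falls among them were those of mt-Nd1, from 4572 and 4273 CPM to 2477 and 2431 CPM (-0.85 ± 0.03), and of mt-Nd3, from 293 and 248 CPM to 183 and 180 CPM (-0.57 ± 0.05). All of these groups were apart, with the shUSP9X libraries at 32.5% of the shCtrl level for mt-Nd4 and at 67.2% for mt-Nd3. With the offset, mt-Nd1 and mt-Nd3 turned to rises of 0.12 and 0.87, while mt-Nd4 and mt-Nd2 stayed lower at -0.16 and -0.13. When the offset was fitted to the longest transcripts, only mt-Nd3 of the 13 mitochondrial subunits changed sign (0.375).

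**Figure D2:**
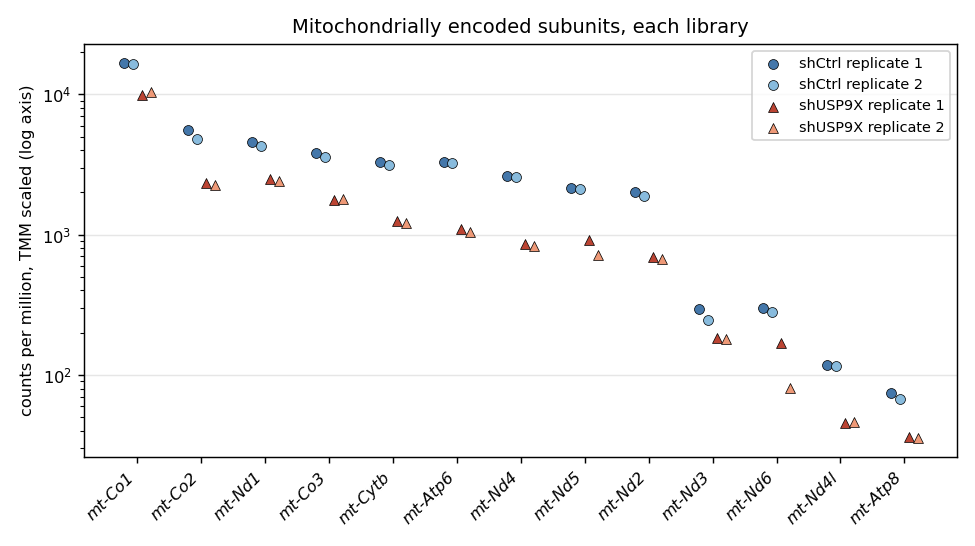
TMM-scaled CPM (log axis) of the 13 mitochondrially encoded subunits in each library, ordered by mean level; circles are shCtrl and triangles shUSP9X. Both shUSP9X libraries lie under both shCtrl libraries for every gene, and the shUSP9X libraries lie apart from each other for mt-Nd6. The groups were apart, in either direction, in 9419 of all 11448 tested genes.

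mt-Nd6 is the only one of the 13 on the minus strand (chrM:13552-14070) and was the one whose replicates differed most. It stood at 302 and 282 CPM in shCtrl and at 168 and 80.7 CPM in shUSP9X, so that the first shUSP9X library held 2.08 times the level of the second, while the groups did not overlap (log2 fold change -1.22 ± 0.14, adjusted p 3.57e-08). Without shUSP9X replicate 2 the log2 fold change was -0.80 and without replicate 1 it was -1.86. With the offset it was 0.24, with an adjusted p of 0.151, and with the offset and the replicate block it was called higher (0.20, adjusted p 1.35e-05). Its neighbour on the plus strand, mt-Nd5 (chrM:11742-13565), stood at 2150 and 2122 CPM in shCtrl and at 913 and 717 CPM in shUSP9X (-1.39 ± 0.06), the second largest gap between the shUSP9X libraries at 1.27 times. With the offset its log2 fold change was -0.17, with an adjusted p of 0.0208. For the other 11 genes the first shUSP9X library held from 0.944 to 1.04 times the level of the second. The genes overlap tail to tail, and no strand setting of the counting is given in the sources used here, so reads from the opposite strand cannot be told apart in either count.

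Neighbouring mitochondrial genes share bases in 4 places, which matters for reads counted near their ends. The overlaps are shown from the plus strand of chromosome M, from GENCODE M21 transcripts (GRCm38), with the start codon of the downstream gene in capitals, or the whole overlap in capitals for the tail-to-tail pair.
mt-Atp8 and mt-Atp6, chrM:7927-7969: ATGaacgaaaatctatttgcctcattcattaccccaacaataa
mt-Nd4l and mt-Nd4, chrM:10167-10173: ATGctaa
mt-Nd5 and mt-Nd6, chrM:13552-13565: TTAATCTCGAGTAA
The remaining one, between mt-Atp6 and mt-Co3, is 1 base long, at position 8607. The counts of mt-Atp8 and mt-Atp6, the membrane subunits of ATP synthase whose genes share 43 bases, did not fall alike. mt-Atp6 went from 3278 and 3269 CPM to 1093 and 1048 CPM (-1.61 ± 0.03, adjusted p 9.26e-25), and the short mt-Atp8 from 74.3 and 67.5 CPM to 35.9 and 35.3 CPM (-0.995 ± 0.070, adjusted p 1.53e-12). The ratio of the mt-Atp8 count to the mt-Atp6 count was 0.0227 and 0.0207 in shCtrl and 0.0329 and 0.0336 in shUSP9X, with no overlap. mt-Nd4l, which shares 7 bases with mt-Nd4, went from 119 and 115 CPM to 45.3 and 46.3 CPM (-1.35 ± 0.06). With the offset mt-Atp6 was at -0.41 and mt-Nd4l at -0.99, both still lower, and mt-Atp8, at the limit of the fitted range, turned to 0.37. Of the 13 genes, 9 have nuclear copies of at least 95% identity over 100 bases or more in GENCODE M21, 11 copies in all, 7 of them on chromosome 1. None of these copies has a row in the table, so reads that fit both places cannot be followed here.

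Because the counts of the 13 genes fell by different amounts, the make-up of the mitochondrial subunit counts changed. mt-Co1 held 37.5 and 38.5% of the mitochondrial subunit counts in shCtrl and 45.5 and 48.1% in shUSP9X. mt-Nd1 went from 10.2 and 9.97% to 11.4 and 11.2%, and mt-Nd3 from 0.654 and 0.578% to 0.845 and 0.828%. The shares of mt-Nd4 (5.84 and 6.04% against 3.96 and 3.83%), mt-Atp6 (7.30 and 7.63% against 5.04 and 4.82%) and mt-Nd2 (4.47 and 4.38% against 3.18 and 3.07%) were lower in both shUSP9X libraries. mt-Co3 kept a near level share, at 8.47 and 8.35% against 8.11 and 8.22%. A single scaling factor per library cancels in these shares, but the offset does not. With it, in a calculation added after the data had been seen, mt-Co1 held 40.8 and 40.2% in shCtrl and 43.1 and 45.2% in shUSP9X, and mt-Atp6 6.20 and 7.02% against 5.64 and 5.57%. The lower shares of mt-Nd4 and mt-Nd2 were lost, at 4.70 and 4.91% against 4.94 and 4.75% and at 3.64 and 3.72% against 3.82 and 3.75%, and mt-Co3 held a lower share, 8.87 and 8.95% against 7.64 and 7.88%. Fitted to the longest transcripts, the offset left both shares lower in both shUSP9X libraries. They were 4.83 and 5.08% against 4.72 and 4.65% for mt-Nd4, and 3.90 and 3.92% against 3.52 and 3.58% for mt-Nd2. With 2 libraries against 2, no exact permutation test of a share or ratio can go below a two-sided p of 0.333, so none is given.

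**Figure D3:**
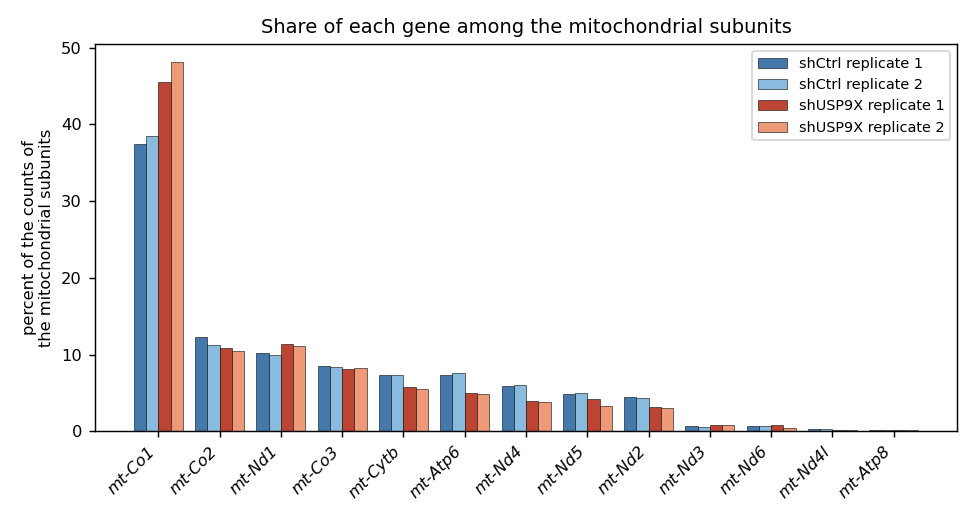
Percent of the counts of the 13 mitochondrial subunits held by each gene (vertical axis, from 0) in each library, 1 bar per library. Without the offset, mt-Co1 held 37.5 and 38.5% in shCtrl and 45.5 and 48.1% in shUSP9X, and the shares of mt-Cytb, mt-Atp6, mt-Nd4 and mt-Nd2 were lower in both shUSP9X libraries.

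The nuclear-encoded subunits moved the other way. Of the 77 tested, 46 rose, 6 fell and 25 did not pass the threshold, with a median log2 fold change of 0.222 and a range from -0.70 to 0.80, against the 33.8% of all genes that rose and the 33.6% that fell. Most of these rises were small. At the fold change cutoff of 1.5, 4 were higher and 1 was lower, where 10.8% of all genes were higher and 18.7% lower. Once the offset for GC content and length was used the balance was lost, at 18 higher and 22 lower with a median of -0.021, beside 36.7% higher and 27.1% lower of all genes. Fitted to the longest transcripts, the offset gave 25 higher and 15 lower with a median of 0.020. The direction of the nuclear subunits as a group thus depended on the offset and its form. Their counts made up 0.871 and 0.856% of the shCtrl libraries and 0.999 and 0.985% of the shUSP9X libraries.

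In complex I, 24 of 36 nuclear subunits rose and 3 fell (median 0.237), beside 33.8% and 33.6% of all tested genes. With the offset 7 were higher and 8 lower, beside 36.7% and 27.1% of all genes. The 7 nuclear subunits of the catalytic core, which bind NADH, flavin and the iron-sulfur clusters, counted 5 that rose and 1 that fell, and the 29 accessory subunits counted 19 and 2. With the offset the core counted 1 higher and 2 lower, and the accessory subunits 6 and 6. Ndufa12 (chr10:94198720-94221443), an accessory subunit near the NADH-binding module, rose most, from 46.9 and 42.0 CPM in shCtrl to 74.7 and 80.2 CPM in shUSP9X (0.80 ± 0.07, SE, adjusted p 6.51e-11). Both shUSP9X libraries lay well above both shCtrl libraries. Ndufa8 went from 56.8 and 60.5 CPM to 89.5 and 86.9 CPM (0.59 ± 0.06), and Ndufb8, an accessory subunit of the membrane arm, from 70.6 and 65.6 CPM to 100 and 98.3 CPM (0.54 ± 0.06). All of them also rose with the offset, by 0.50, 0.26 and 0.20.

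The falls in nuclear complex I genes were small. Ndufb2 went from 17.9 and 21 CPM to 14.2 and 14.7 CPM (-0.43 ± 0.12, adjusted p 0.00233), and Ndufs4, an accessory subunit needed for a stable NADH-binding module, from 43.7 and 42.0 CPM to 36.1 and 36.2 CPM (-0.25 ± 0.08, adjusted p 0.00605). Both were also lower with the offset, at -0.64 and -0.32. Ndufs1, the largest core subunit, stood at 141 and 146 CPM against 137 and 128 CPM (-0.11 ± 0.05, adjusted p 0.0437), a call lost with the offset (-0.02), without shCtrl replicate 2 (-0.09) and without shUSP9X replicate 2 (-0.07). It was also lost in DESeq2 (adjusted p 0.141), with upper quartile scaling (0.157) and with no filter beyond 1 count (0.083). Ndufb9, an accessory subunit among those with the highest level per length (116 FPKM), rose by 0.30 ± 0.06, and with the offset it turned to -0.04.

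Complex II, which has no mitochondrial subunit, changed little. Sdha, the flavin-bearing subunit that oxidises succinate, stood at 231 and 228 CPM in shCtrl and at 252 and 250 CPM in shUSP9X (0.13 ± 0.04, adjusted p 0.00547). Sdhb, which holds the iron-sulfur clusters, stood at 50.3 and 52.2 CPM against 58.8 and 60.8 CPM (0.22 ± 0.06, adjusted p 0.00389). Of the membrane anchors, Sdhd stood at 160 and 149 CPM against 181 and 171 CPM (0.19 ± 0.05, adjusted p 0.000997) and Sdhc at 110 and 106 CPM against 117 and 116 CPM (0.10 ± 0.05, adjusted p 0.0656). In all 4 genes the groups were apart by a small step, and 3 of them rose. The calls of Sdha (0.12) and Sdhd (0.15) were lost without shUSP9X replicate 1, which left 1 rise, that of Sdha also without replicate 2 (0.14) and from log2(FPKM + 1) and log2(FPKM + 0.1) in limma-trend (0.10 and 0.10). Sdhc passed the threshold without shCtrl replicate 1 (0.14) and with upper quartile scaling (0.14). The summed level of the complex was 552 and 535 CPM in shCtrl and 609 and 598 CPM in shUSP9X. With the offset Sdhc was lower (-0.23), Sdha was still higher (0.11), and Sdhb and Sdhd were not past the threshold at -0.09 and -0.05.

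In complex III, 3 of 8 nuclear subunits rose and 1 fell (median 0.084), a share of rises near the 33.8% of all tested genes. With the offset 5 were higher and 3 lower, beside 36.7% and 27.1% of all genes. Uqcr10 (chr11:4701973-4704342, minus strand), a small accessory subunit, went from 26.9 and 24 CPM to 44.9 and 43.1 CPM (0.79 ± 0.09, adjusted p 6.90e-09). Uqcrc1, a core protein on the matrix side, went from 152 and 157 CPM to 233 and 214 CPM (0.53 ± 0.05, adjusted p 1.06e-10), and Uqcr11 from 22.6 and 21.9 CPM to 33.6 and 29.97 CPM (0.51 ± 0.10). The shUSP9X libraries were the higher ones throughout, and all 3 also rose with the offset, by 0.51, 0.29 and 0.33. Uqcrh, the hinge protein that helps cytochrome c dock, was at 65.6 and 61.2 CPM against 55.0 and 56.1 CPM (-0.19 ± 0.06, adjusted p 0.0099), a call lost in DESeq2 (-0.19, adjusted p 0.0674), without shCtrl replicate 1 (-0.13) and without shUSP9X replicate 1 (-0.18), but at -0.47 with the offset. Uqcrb and Uqcrq did not pass the threshold, at 0.003 ± 0.063 and 0.05 ± 0.05. Under the offset Uqcrb was called higher (0.19) and Uqcrq lower (-0.19). Cyc1, the cytochrome c1 of this complex, which the symbols above leave out, rose by 0.42 ± 0.04.

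In complex IV, 4 of 12 tested nuclear subunits rose, 1 fell and 7 did not pass the threshold (median 0.081), a share of rises near the 33.8% of all tested genes. The count of lower subunits was 3 without shCtrl replicate 2 and 2 without shUSP9X replicate 1. Cox4i1, the regulatory subunit that binds ATP, went from 183 and 181 CPM to 235 and 224 CPM (0.33 ± 0.04, adjusted p 1.52e-07), and Cox5b from 104 and 99.9 CPM to 125 and 120 CPM (0.27 ± 0.05). Cox7a2l, which joins complexes III and IV into supercomplexes, went from 104 and 104 CPM to 135 and 134 CPM (0.37 ± 0.05, adjusted p 2.17e-07). In none of these 3 was the rise past the threshold with the offset, where they stood at 0.03, -0.02 and 0.09, and with it 7 of the 12 were lower and none was higher, beside 27.1% and 36.7% of all genes. Fitted to the longest transcripts, the offset gave 4 lower and 3 higher, beside 3133 lower and 4180 higher of all genes.

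Cox7b (chrX:106015700-106022450), a small membrane subunit of complex IV, was the one nuclear subunit past a fold change of 1.5 downward. It stood at 91.0 and 90.6 CPM in shCtrl and at 57.1 and 54.7 CPM in shUSP9X (-0.70 ± 0.06, adjusted p 4.60e-11), and was lower with the offset as well (-0.46). Within each group its libraries differed by a few CPM at most. Its transcript had the lowest GC content of the tested nuclear subunits, 42.0%. The most abundant nuclear subunit of complex IV per length, Cox8a (429 FPKM), stood at 251 and 229 CPM against 226 and 237 CPM (-0.05 ± 0.04), and its groups overlapped. Cox6a1 (0.06 ± 0.04), Cox6b1 (0.07 ± 0.05), Cox7a2 (0.11 ± 0.07) and Ndufa4 (0.04 ± 0.05), a subunit first assigned to complex I, did not pass the threshold either. Under the offset Cox8a (-0.30), Cox6a1 (-0.18), Cox6b1 (-0.23) and Cox7a2 (-0.21) were called lower, and Ndufa4 was not called (0.02). Calls were gained without shCtrl replicate 1 for Cox6b1 (0.12) and without shCtrl replicate 2 for Cox7a2 (0.17) and Cox8a (-0.12).

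The isoforms of complex IV subunits known from muscle, heart, lung or testis were close to absent. Cox4i2, Cox6b2, Cox8b and Cox8c were listed at 0 in all 4 libraries, and Cox7b2 had at most 3 counts in any. Cox6a2, the muscle form, had counts of 1 and 0 in shCtrl and of 13 and 7 in shUSP9X, beside 2892 and 2561 against 3409 and 2854 for the common form Cox6a1. Cox7a1, the heart and muscle form, had 10 and 3 against 4 and 2. Ndufa4l2, a gene induced by hypoxia that takes the place of Ndufa4, had 17 and 3 against 5 and 3, so its groups met at the lowest counts. None of these was tested. The 11 untested members also hold Ndufb11b, a second row named Atp5o (ENSMUSG00000116933), both listed at 0, and the pseudogene row Cox5b-ps.

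In complex V, 12 of 17 nuclear subunits rose and 1 fell (median 0.274), beside 33.8% and 33.6% of all tested genes. With the offset 5 were higher and 3 lower, beside 36.7% and 27.1% of all genes. In F1, the catalytic head with its central stalk, 4 of 5 subunits rose, and with the offset 2 were higher and 1 was lower. Among those that rose was the catalytic subunit Atp5b, the nuclear subunit with the highest level per length (932 FPKM). It stood at 1639 and 1597 CPM in shCtrl and at 1957 and 1958 CPM in shUSP9X (0.27 ± 0.03, adjusted p 4.64e-09). Its partner Atp5a1 went from 747 and 763 CPM to 1005 and 963 CPM (0.38 ± 0.03, adjusted p 8.96e-11). With the offset they stood at 0.09 and 0.26, both still higher.

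Subunit c, which forms the turning ring in the membrane, is encoded by 3 nuclear genes that give the same mature protein from different precursors, and all 3 rose. Atp5g1 (chr11:96068852-96075670, minus strand) went from 79.1 and 78.8 CPM to 137 and 135 CPM (0.78 ± 0.05, adjusted p 2.38e-13), 172% of the shCtrl level. Atp5g3 went from 190 and 194 CPM to 258 and 245 CPM (0.39 ± 0.04) and Atp5g2 from 148 and 121 CPM to 172 and 168 CPM (0.34 ± 0.06). The gap between the shCtrl libraries of Atp5g2 was the widest of the 3 genes, and without shCtrl replicate 2 its log2 fold change was 0.20. The summed level of the family was 417 and 394 CPM in shCtrl and 567 and 548 CPM in shUSP9X. With the offset Atp5g1 was still higher (0.45), and Atp5g2 and Atp5g3 were not past the threshold (0.02 and 0.09).

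Atp5j, a subunit of the peripheral stalk that holds the head still, was the one subunit of complex V that fell, from 66.5 and 64.0 CPM to 53.5 and 51.3 CPM (-0.32 ± 0.06, adjusted p 9.46e-05), and it was lower with the offset too (-0.65). The other tested subunits of the stalk counted 2 that rose and 1 that did not pass the threshold, and with the offset none of the stalk was higher and 2 were lower, Atp5j included. Atp5md, a small membrane subunit that helps ATP synthase form dimers, rose from 38.9 and 39.2 CPM to 52.9 and 51.5 CPM (0.42 ± 0.07, with the offset 0.48).

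The 2 sides were also set against each other within each library, as summed CPM of the mitochondrial subunits over summed CPM of the nuclear subunits of the same complex, a ratio in which a single scaling factor per library cancels, but not a correction that differs between genes, such as the offset. In complex I the ratio was 6.70 and 6.46 in shCtrl and 2.48 and 2.34 in shUSP9X, 36.7% of the shCtrl mean. In complex III it was 4.43 and 4.30 against 1.45 and 1.43, or 33.1%, and in complex V 0.818 and 0.836 against 0.228 and 0.221, or 27.2%. Complex IV had the smallest shift, 17.9 and 17.7 against 9.14 and 9.67, or 52.8%. In each complex both shUSP9X ratios lay below both shCtrl ratios, by many times the gap between replicates. On the log2 scale the shifts were -1.45, -1.60, -0.92 and -1.88 for complexes I, III, IV and V, and from sums of FPKM they were -1.41, -1.61, -0.99 and -1.85. Without the offset the mitochondrial sums moved more than the nuclear ones. In TMM-scaled CPM, the mitochondrial sum in complex V changed by -1.60 and the nuclear sum by 0.28 on the log2 scale, and in complex IV by -0.84 and 0.08.

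The shifts of these ratios were smaller once the trend with GC content and length had been taken out of each library, a calculation added after the data had been seen. In complexes I and IV the log2 shift was then -0.02 and -0.02, and the groups overlapped, with 3.86 and 4.13 against 4.03 and 3.86 in complex I and 12.8 and 13.3 against 12.4 and 13.4 in complex IV. In complex III the shift was -0.76 (3.22 and 3.31 against 1.92 and 1.93) and in complex V it was -0.47 (0.459 and 0.560 against 0.365 and 0.369), without overlap of the groups. In complex IV the mitochondrial sum then changed by -0.16 and the nuclear sum by -0.14, and in complex V by -0.39 and 0.09. With the offset on the longest transcripts the shifts were -0.31, -0.83, -0.28 and -0.965 for complexes I, III, IV and V, and the groups overlapped in none of them.

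**Figure D4:**
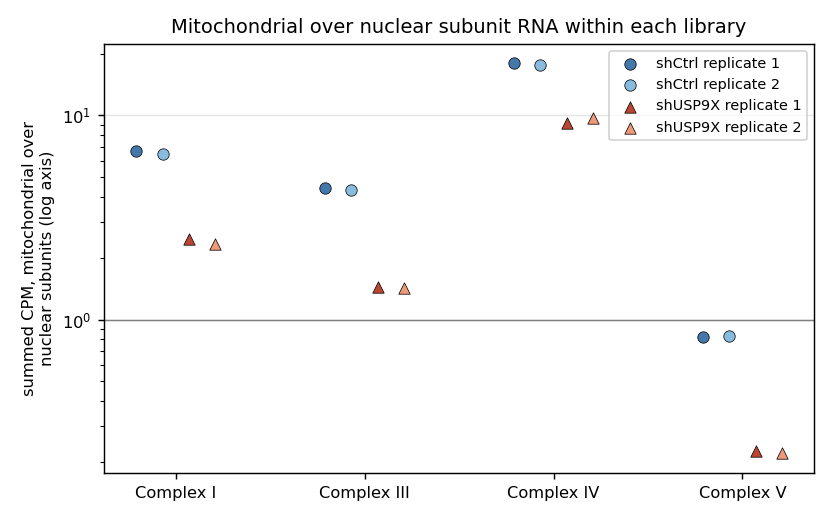
Summed CPM of the mitochondrial over the nuclear subunits of each complex (log axis) in each library, with circles for shCtrl and triangles for shUSP9X. Without the offset, the ratio is lower in both shUSP9X libraries in all 4 complexes, from 0.818 and 0.836 to 0.228 and 0.221 in complex V and from 17.9 and 17.7 to 9.14 and 9.67 in complex IV.

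The genomes differ in base composition, and the fold changes of all genes in these libraries moved with it. Across the 11430 tested genes with a known GC content and length, rho (Spearman) of log2 fold change was 0.438 with transcript GC content and -0.294 with transcript length, as a description over genes that are no replicates of each other. The mitochondrial subunits have a GC content of 31.9 to 41.1% and the tested nuclear subunits of 42.0 to 61.1%, so the ranges do not meet. The 865 tested nuclear genes with a GC content in the mitochondrial range, none of them a subunit, had a median log2 fold change of -0.907, with 728 that fell and 43 that rose. The 153 of these that also lay in the length range of the mitochondrial subunits had a median of -0.732, with 115 that fell and 13 that rose. The median of the mitochondrial subunits, -1.22, was lower than both medians, and all 13 subunits lay within the spread of either set, from -2.91 at the 10th percentile to -0.06 at the 90th for the first and from -2.58 to 0.07 for the second. Of the 13 genes, 3, mt-Co1, mt-Nd1 and mt-Nd3, had smaller falls than the first median. Among the mitochondrial subunits alone rho with GC content was 0.011 (n = 13). Among the nuclear subunits it was 0.332 (n = 77), with 26 rises and 2 falls in the 39 genes at or above their median GC content of 51.7% and 20 rises and 4 falls in the 38 below it. What made the fold changes follow GC content was not tested.

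**Figure D5:**
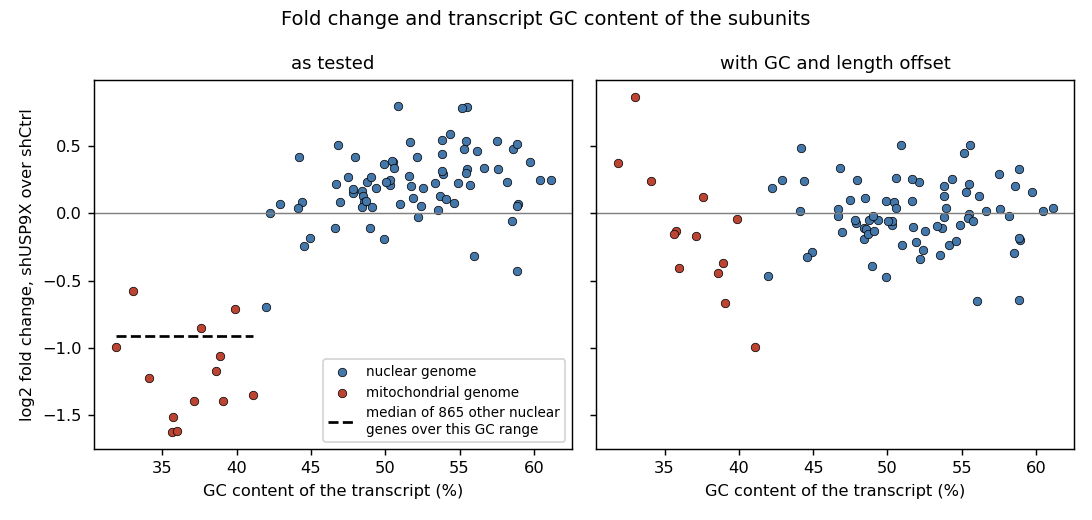
log2 fold change of shUSP9X over shCtrl (vertical axes) against transcript GC content in percent (horizontal axes) for the tested subunits, as tested (left) and under the offset for GC content and length (right); the dashed line is the median, -0.907, of 865 nuclear genes that are no subunits over the GC range of the mitochondrial genes. The mitochondrial median moves from -1.22 on the left to -0.156 on the right.

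Promoters of the nuclear subunits carry known sites for regulators of mitochondrial genes, so the letters of 3 of these motifs were searched on both strands of RefSeq promoters (250 bases before to 50 bases after the start site, GRCm38.p6). Of the 77 tested nuclear subunits, 65 were matched to a promoter by symbol or synonym. The NRF1 motif, GCGCATGC or its reverse complement GCATGCGC, which overlap each other in the full palindrome, was found for 10 of the 65 (15.4%) and for 3.05% of all 27025 genes with a promoter. These include genes that were not tested here, whereas the 65 all passed the filter on low counts, so the sets are not alike. It was present in 7 of the 42 that rose, in 0 of the 5 that fell and in 3 of the 18 that did not pass the threshold. The ETS motif bound by GABP, CCGGAAGT, was found for 5 of the 65 (7.69%) against 4.31% of all genes, and the YY1 motif, AAGATGGC, for 10 (15.4%) against 3.19%. YY1 matches lay in 7 of the 42 that rose and 2 of the 5 that fell. Windows of 30 bases are shown for members that rose, for one that did not pass the threshold and for Atp5j, which fell, 5′ to 3′ on the gene's strand and with the motif in capitals.
Ndufa8, NRF1, chr2:36049339-36049368, minus strand: gcgcttgcgcgtcgctggagacGCATGCGC
Atp5g2, NRF1, chr15:102671071-102671100, minus strand: tggctccggccGCGCATGCgcagagccttc
Sdhb, NRF1, chr4:140961206-140961235, plus strand: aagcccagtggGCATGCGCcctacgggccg
Cox6a1, NRF1, chr5:115349102-115349131, minus strand: acaggaacgggGCGCATGCgcgctctcgct
Uqcr11, ETS, chr10:80406869-80406898, minus strand: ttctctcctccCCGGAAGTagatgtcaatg
Atp5j, YY1, chr16:84835046-84835075, minus strand: aaagtgtaggaAAGATGGCggagtcttagc
A match of letters is a description of the window and does not show that a factor was bound there.

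Other genes of the pathway are described by lists of genes beside the shares of all tested genes that fell (33.6%) and rose (33.8%). With the offset the shares to set beside them are 27.1% lower and 36.7% higher. The genes that copy and transcribe mitochondrial DNA did not move one way. Of 16 tested, 5 rose and 5 fell (median 0.07), and with the offset 3 were higher and 2 lower. Polrmt, the mitochondrial RNA polymerase, went from 26.9 and 26.3 CPM to 33.6 and 35.4 CPM (0.37 ± 0.09, adjusted p 0.000522), and Polg, the catalytic subunit of the DNA polymerase, from 56.2 and 66.6 CPM to 78.7 and 80.01 CPM (0.37 ± 0.07). Top1mt, the mitochondrial topoisomerase, rose by 0.41 ± 0.18, a call lost with the offset (0.19). Tfam, which packs the DNA and starts transcription, went from 72.4 and 65.1 CPM to 58.9 and 58.6 CPM (-0.23 ± 0.06, adjusted p 0.00287, with the offset -0.40), and its partner Tfb2m from 42.4 and 34.9 CPM to 28.8 and 32.3 CPM (-0.35 ± 0.09, with the offset 0.09). Mterf2 (-1.16 ± 0.27) and Mterf1a (-0.90 ± 0.25), members of the mitochondrial termination factor family, and Ssbp1, the single-strand DNA-binding protein (-0.39 ± 0.08), fell most, and of these only Mterf2 was lower with the offset (-0.94).

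Of 21 genes for processing and stability of mitochondrial RNA, 9 rose and 5 fell (median 0.23), and with the offset 16 were higher and 1 was lower (median 0.36). Elac2, which cuts the 3′ ends of tRNAs out of the long transcripts, went from 63.5 and 66.5 CPM to 115 and 110 CPM (0.80 ± 0.05, adjusted p 1.20e-12), Tbrg4 rose by 0.69 ± 0.06 and the helicase Supv3l1 by 0.62 ± 0.07. Trmt10c, a subunit of the RNase P that cuts the 5′ ends, went from 39.96 and 35.9 CPM to 21.9 and 26.1 CPM (-0.67 ± 0.10, adjusted p 9.06e-07, with the offset -0.15), and Lrpprc, which keeps mitochondrial mRNAs and their poly(A) tails stable, from 178 and 179 CPM to 145 and 145 CPM (-0.30 ± 0.04, adjusted p 1.32e-06, with the offset -0.10). The groups of each were apart. Pde12, which removes poly(A) from mitochondrial RNA, fell by 0.23 on the log2 scale and turned to 1.21 with the offset.

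Among 13 nuclear regulators of respiratory chain genes, 7 rose and 4 fell (median 0.31), and with the offset 9 were higher and 1 was lower. Myc went from 109 and 114 CPM to 220 and 218 CPM (0.97 ± 0.05, adjusted p 2.79e-16), Pprc1, a coactivator of the PGC-1 family, from 99.9 and 103 CPM to 182 and 190 CPM (0.88 ± 0.05), and Tfeb, a regulator of lysosomal and mitochondrial genes, from 15.4 and 15.7 CPM to 27.4 and 29.2 CPM (0.86 ± 0.10). All 3 also rose with the offset. Nrf1, whose motif is shown above, rose from 47.6 and 46.2 CPM to 57.5 and 58.9 CPM (0.31 ± 0.07). Gabpa, the DNA-binding subunit of GABP, went from 108 and 106 CPM to 51.2 and 49.5 CPM (-1.08 ± 0.06, adjusted p 4.07e-15, with the offset -0.16), and Gabpb2 fell by 0.43 on the log2 scale but turned to 0.79 with the offset. Ppargc1a, the coactivator PGC-1α, was scarce, with counts of 53 and 41 in shCtrl and of 22 and 27 in shUSP9X (-1.07 ± 0.34, with the offset -0.01).

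Among 53 tested assembly factors of the complexes, 22 rose and 4 fell (median 0.15). With the offset 20 were higher, a share near the 36.7% of all genes, and 9 were lower. Coa5, which acts in complex IV assembly, went from 94.98 and 90.1 CPM to 202 and 188 CPM (1.07 ± 0.05, adjusted p 3.38e-16), Uqcc2, for complex III, from 30.7 and 30.3 CPM to 59.0 and 53.4 CPM (0.88 ± 0.08), and Cox19 from 17.9 and 20.7 CPM to 36.1 and 30.5 CPM (0.79 ± 0.11). Sdhaf3, for complex II, fell by 0.68 on the log2 scale with at most 86 counts in a library, Cox20 by 0.60 and Cox14, both for complex IV, by 0.47. With the offset Coa5, Uqcc2, Cox19, Cox20 and Cox14 kept their calls, and Sdhaf3 turned to 0.34 (adjusted p 0.198). Of 18 tested genes for electron carriers and coenzyme Q synthesis, which include Cycs, Cyc1 and Ndufab1, 8 rose and 3 fell, and with the offset 9 were higher and 2 lower. Coq4 (0.91 ± 0.12), Coq7 (0.61 ± 0.10) and Coq5 (0.48 ± 0.08), of coenzyme Q synthesis, rose most, and Etfa (-0.50 ± 0.06), Etfdh (-0.36 ± 0.08) and Ndufab1 (-0.18 ± 0.05) fell. Etfa and Etfdh pass electrons from fatty acid oxidation to coenzyme Q, and Ndufab1, the mitochondrial acyl carrier protein, turned to 0.17 with the offset.

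Genes that report on mitochondrial mass and protein import rose in 12 of 15 cases and fell in 2 (median 0.38). Phb2 went from 210 and 214 CPM to 376 and 385 CPM (0.85 ± 0.04), Tomm40, the channel of the outer membrane import complex, from 124 and 133 CPM to 214 and 212 CPM (0.73 ± 0.05), and Phb from 190 and 196 CPM to 307 and 306 CPM (0.67 ± 0.04). Tomm70a, an import receptor, stood at 274 and 272 CPM against 241 and 257 CPM (-0.14 ± 0.04, with the offset 1.00), and Hspa9, the matrix chaperone, at 1029 and 961 CPM against 931 and 926 CPM (-0.10 ± 0.03, with the offset 0.08). With the offset 13 of the 15 were higher and none was lower, beside 36.7% and 27.1% of all genes. Of 14 genes of the tricarboxylic acid cycle, 8 rose and 3 fell (median 0.19), and with the offset 7 were higher and 3 lower. Ogdh (0.78 ± 0.04), Mdh2 (0.46 ± 0.03) and citrate synthase (Cs, 0.40 ± 0.04) rose most, Sucla2 (-0.65 ± 0.06), Dld (-0.36 ± 0.05) and Idh2 (-0.28 ± 0.04) fell, and with the offset Dld turned to 0.33 while the other 5 kept their calls.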

How the data were processed

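RNA of 4 libraries of ID8 cells, grouped by the shRNA in their labels, was measured. Per the labels and the study's methods, the authors mapped reads to GRCm38, and the submitters' processing notes name fastp 0.18.0, Bowtie2 2.2.8, HISAT2, StringTie 1.3.1 and RSEM. As deposited by the authors, each gene has an unnormalized estimated count in each library, of which 6.40 to 6.69% of values were not whole, and these were rounded. The authors also deposited FPKM values, scaled for transcript length and library size, used here for levels between genes and as an alternative input.

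Counts were filtered with filterByExpr, scaled by TMM and fitted with glmQLFit and glmQLFTest, the quasi-likelihood model in edgeR 4.0.16 under R 4.3.3, with no covariate, at an adjusted p of 0.05 (Benjamini-Hochberg, common biological coefficient of variation 0.0352). For the offset, a loess curve (span 0.3) of counts against GC content and log length was taken out in each library, using the GENCODE M21 transcript nearest to the length that count and FPKM imply, known for 99.8% of tested genes. On simulated data with 200 of 11448 genes changed, 93.5% were recovered and 9 of 11248 unchanged genes were called. Each change had the same size, larger than that of any nuclear subunit here, and no trend with GC content or length was put in. These rates therefore do not cover small changes or data with such a trend. Libraries of a group differed by more than counting error (chi-square per gene 3.36 for shCtrl and 2.09 for shUSP9X), so none was counted as a repeat. Molecular identifiers are not described, so that totals limit counting error only.

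The members, the lists and the tests were chosen with earlier results of these data known. Named members are the mitochondrial genes, the Sdh genes, in each other complex the 3 nuclear members with the highest mean FPKM and the 3 lowest and 3 highest changes past the threshold without overlap (mean log2 CPM of at least 4), and isoforms above 3 counts. Some items that this rule names are not reported here. From each list of other genes the 3 lowest and 3 highest changes past the threshold are named. Tfam, Tfb2m, Nrf1 and Cyc1 were named from those lists as their text needed them. Nuclear copies were found with BLAST 2.17.0. Alternatives were DESeq2 1.42.0, other scalings and filters, limma-trend (limma 3.58.1) on log2(FPKM + 1) and log2(FPKM + 0.1), a replicate block, the offset, membership and call rules, and each library left out.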

Additional observations from a re-analysis of the deposited data

How the results depend on the processing

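Without the offset, all 13 mitochondrial subunits were lower under every alternative run except the fold change rule (12), and all 11 features were lower once mt-Atp8 had been summed with mt-Atp6 and mt-Nd4l with mt-Nd4, the other 2 overlaps being left as they were. Of 46 named and tested members, 38 were scored the same in all 15 settings without the offset. This score ignores the sign of a member that passed the threshold in neither fit. Uqcrb, for instance, was at 0.003 in the main fit and at -0.038 without shUSP9X replicate 2. Over 826 fits of named members in alternatives, 745 were the same by this score, 35 lost the call, 12 gained it and 34 reversed. The same replicate numbers did not pair the libraries (correlation of deviations -0.045), and the replicate block alone gave 13 lower mitochondrial subunits (median -1.28), 6 lower and 46 higher nuclear subunits and 3810 lower and 3855 higher genes in all. The alternative that adds counts of nuclear copies was not run, since no copy has a row.

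With the GC content and length offset, and with the offset and the replicate block, 8 and 8 mitochondrial subunits were lower and 3 and 4 higher (medians -0.156 and -0.154). Of the nuclear subunits 22 and 22 were lower and 18 and 18 higher (medians -0.021 and -0.023, reversed). Lower and higher counts were the same in both fits for each complex: 8 and 7 in complex I, 1 and 1 in complex II, 3 and 5 in complex III, 7 and 0 in complex IV, and 3 and 5 in complex V. Reversed log2 fold changes in both fits were 0.122 and 0.122 for mt-Nd1, 0.866 and 0.866 for mt-Nd3, 0.239 and 0.199 for mt-Nd6 (called higher only with the block, adjusted p 0.151 and 1.35e-05), 0.371 and 0.373 for mt-Atp8, -0.036 and -0.036 for Ndufb9, -0.088 and -0.088 for Sdhb, -0.234 and -0.234 for Sdhc, -0.050 and -0.051 for Sdhd, -0.192 and -0.192 for Uqcrq, -0.019 and -0.020 for Cox5b, -0.184 and -0.184 for Cox6a1, -0.232 and -0.232 for Cox6b1, and -0.210 and -0.210 for Cox7a2.

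With the offset on the longest transcript, chosen after seeing the data, 1 mitochondrial subunit was higher (median -0.414), and 15 nuclear subunits were lower and 25 higher (median 0.020). Complex I had 5 lower and 9 higher, complex II 0 lower and 0 higher, complex III 3 lower and 5 higher, complex IV 4 lower and 3 higher, and complex V 3 lower and 8 higher. Reversed were mt-Nd3 (0.375), Ndufb9 (-0.061), Sdhb (-0.117), Sdhd (-0.081), Uqcrq (-0.218), Cox5b (-0.034), Cox6b1 (-0.289) and Cox7a2 (-0.262). The cause of these changes was not tested.

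The rule of a fold change above 1.5 at an unadjusted p under 0.05 left 2143 lower and 1233 higher genes in all, and 1 nuclear subunit was lower and 4 higher. By complex these were 0 and 2 in complex I, 0 and 0 in complex II, 0 and 1 in complex III, 1 and 0 in complex IV and 0 and 1 in complex V, as a stricter rule makes fewer calls. Falls in complex I were 2 in place of 3 in DESeq2, with upper quartile scaling and with no filter beyond 1 count. DESeq2 gave 0 lower in complex III, upper quartile scaling 5 higher in complex III and scaling by library size only 2 lower in complex IV. The mitochondrial median was -1.352 from log2(FPKM + 1) and -1.356 from log2(FPKM + 0.1). From sums of FPKM the log2 shift of the mitochondrial over nuclear ratio was -0.992 in complex IV and -1.848 in complex V. With the offset, added after seeing the data, it was -0.017, -0.761, -0.017 and -0.474 in complexes I, III, IV and V, and on the longest transcript -0.307, -0.829, -0.276 and -0.965.

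Leaving out each library in turn, where the lone library of a group is assumed to vary like the other group, gave a mitochondrial median from -1.336 to -1.143, from 1 to 4 rises in complex II, from 0 to 1 fall in complex III and from 1 to 3 falls in complex IV. The highest and lowest numbers of rises among the nuclear subunits were 50 and 36, and of falls 8 and 5. The calls of small changes such as those of complex II thus depended on which libraries were used.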

Other observations

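The deposited counts and FPKM together imply a mean transcript length for each gene and library, which shows whether reads were assigned to longer or shorter transcripts. It was within 5% between the groups for 70 of the 77 tested nuclear subunits. In 6 it differed by more than 5% without overlap, and these genes were chosen after their values were seen. The same count was not made over all tested genes, so whether this share is unusual is not known. Ndufb5, an accessory subunit of complex I, had an implied length of 933 and 806 bases in shCtrl and of 732 and 763 bases in shUSP9X. Its shCtrl libraries lay further from each other than the nearest libraries of the groups did. Ndufa5 stood at 92.8%, Uqcrq at 92.4%, Ndufs1 at 105.7%, Ndufc1 at 105.7% and Ndufa3 at 107.0% of the shCtrl length. The gap was narrow for Ndufc1, at 447 and 405 bases in shCtrl and 448 and 453 bases in shUSP9X. The 13 mitochondrial genes have a single transcript each and the same implied length in all libraries.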
